A study of Mus musculus with 2 samples.

Results

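The interferon regulatory factor (Irf) genes were compared between E2A-deficient mouse haematopoietic progenitor cells infected with E47ER and E2A-deficient cells infected with bHLHER. The family was taken as every annotated symbol made of Irf and a single digit with a value in the deposited table. This gave 8 genes (Irf1, Irf2, Irf3, Irf4, Irf5, Irf7, Irf8 and Irf9) of 10101 named genes with values above 0 on both arrays. Cells of both groups lacked E2A (Tcf3), the gene that encodes E47, and whose own level is not analysed here. They were given 4-hydroxytamoxifen for 6 h, starting 48 h after infection. Each group was 1 one-colour CodeLink array of Cy5-labelled total RNA, so no value below has a replicate and no p-value is given. The sources used here do not give the strain, sex or age of the mice, the number of animals pooled or the share of cells infected. No uninfected or untreated array was analysed here, so a difference between the arrays can lie in either group.

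Irf proteins are transcription factors that share a DNA-binding domain and recognise interferon-stimulated response elements (ISREs). Irf3, Irf5 and Irf7 lie latent in the cytoplasm until kinases downstream of nucleic acid sensors and Toll-like receptors activate them, and Irf9 binds DNA together with Stat factors after interferon receptors are engaged. Irf1 is itself induced by interferons, and Irf2 competes with it for the same elements. Irf4 and Irf8 are the members made chiefly in blood cells. They bind composite elements with partners such as Spi1 (PU.1), and Irf8 is needed for the development of several dendritic cells, monocytes and B cells. E47 binds E boxes, short elements of the form CANNTG.

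Promoters of the family are shown because its members differed in their ratio between the arrays. RefSeq promoters (GRCm38.p6, 250 bases before to 50 after a start) were found for all 8 members, with 11 start sites in all. The first start of Irf8 (chr8:120736108-120736407, plus strand), its second start (chr8:120738389-120738688, plus), Irf7 (chr7:141266375-141266674, minus), the first start of Irf1 (chr11:53769764-53770063, plus) and Irf3 (chr7:44997398-44997697, plus), the member nearest to a ratio of 1, are given 5′ to 3′. Capitals mark matches to TTCNNNGAA, the core of the gamma-activated site (GAS) that Stat factors bind, to a core of the ISRE (GAAA followed by GAAA after a gap of 2 bases), and to the E boxes CAGGTG and CAGCTG, each on either strand.
Irf8, first start: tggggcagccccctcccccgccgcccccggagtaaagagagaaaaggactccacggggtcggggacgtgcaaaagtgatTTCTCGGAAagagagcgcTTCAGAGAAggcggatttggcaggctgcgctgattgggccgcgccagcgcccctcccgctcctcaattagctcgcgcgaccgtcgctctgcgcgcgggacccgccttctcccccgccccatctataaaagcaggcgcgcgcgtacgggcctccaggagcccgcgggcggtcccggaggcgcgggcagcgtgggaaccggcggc
Irf8, second start: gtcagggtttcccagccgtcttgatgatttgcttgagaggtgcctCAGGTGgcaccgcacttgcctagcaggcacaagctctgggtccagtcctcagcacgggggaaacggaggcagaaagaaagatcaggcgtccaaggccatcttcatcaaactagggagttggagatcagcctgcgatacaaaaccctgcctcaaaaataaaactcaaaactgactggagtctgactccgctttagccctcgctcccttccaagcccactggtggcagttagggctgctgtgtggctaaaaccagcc
Irf7: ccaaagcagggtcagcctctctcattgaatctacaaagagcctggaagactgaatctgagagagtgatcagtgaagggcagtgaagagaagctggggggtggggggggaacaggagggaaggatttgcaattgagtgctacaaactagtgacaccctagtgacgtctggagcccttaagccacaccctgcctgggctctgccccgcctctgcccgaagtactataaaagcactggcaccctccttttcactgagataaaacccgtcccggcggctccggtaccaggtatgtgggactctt
Irf1, first start: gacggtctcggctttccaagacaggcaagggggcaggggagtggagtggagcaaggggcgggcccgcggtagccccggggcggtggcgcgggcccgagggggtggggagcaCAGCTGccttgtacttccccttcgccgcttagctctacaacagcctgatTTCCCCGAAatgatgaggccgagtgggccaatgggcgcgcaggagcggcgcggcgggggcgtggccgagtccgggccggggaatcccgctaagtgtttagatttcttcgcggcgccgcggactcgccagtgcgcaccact
Irf3: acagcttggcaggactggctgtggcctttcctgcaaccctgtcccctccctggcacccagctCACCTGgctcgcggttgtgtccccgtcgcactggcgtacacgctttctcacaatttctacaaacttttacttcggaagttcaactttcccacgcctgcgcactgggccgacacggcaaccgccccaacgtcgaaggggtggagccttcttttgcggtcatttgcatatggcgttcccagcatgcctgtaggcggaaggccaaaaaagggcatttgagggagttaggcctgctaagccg

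The Irf8 promoter held 2 matches to the GAS core, TTCTCGGAA and TTCAGAGAA, whose first bases lay at -171 and -153 from the start. The Irf1 promoter held TTCCCCGAA at -90. Irf2 had a match as well, so 3 of the 8 genes carried this core at 1 or more start sites. The core was found in 8.30% of 32851 RefSeq promoters of the same length. The ISRE core was found in 3.44% of those promoters and, within the family, in Irf2 alone. CAGGTG or CAGCTG was present for 4 members (Irf1, Irf3, Irf8 at its second start only, and Irf9). In all promoters CAGGTG was found in 20.2% and CAGCTG in 16.3%, and the share with either is not given here. The looser form CANNTG, which includes CAGGTG and CAGCTG, was found in 72.3% of all promoters and for 6 members. Members are counted as genes, over 11 start sites in all, while the percentages count single promoters. The member counts and the percentages are therefore not directly comparable. Irf3, which was level, held CAGGTG. Irf7, which was higher with E47ER, held none of the 4 capitalised motifs but held CAATTG, of the form CANNTG, at -123. Whether any match bears on a ratio was not tested. A match is a run of letters and not a bound site.

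Intensities are linear and in the arbitrary units of the deposited table. The array medians over all probes, 0.957 for E47ER and 0.953 for bHLHER, served as the floor, and a gene counted as measured when it lay above the floor on both arrays. Each Irf gene was read by 1 probe, and the levels of different probes are not ranked against each other. Ratios are E47ER over bHLHER, and a gene was called higher or lower when the ratio was at least 2-fold in size, which sets a size and is no test. 6 of the 8 Irf genes were measured on both arrays.

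Irf8 differed most of the family. Its intensity was 16.4 on the E47ER array, against 2.17 on the bHLHER array, so it was 7.55-fold higher with E47ER (log2 ratio 2.92). Only 4 of the 5534 measured genes had a higher ratio, which put Irf8 at rank 5. On the bHLHER array it lay 2.28 times above the floor, so it was dim there but measured. In such bulk RNA, more cells that make a gene and more RNA per cell cannot be told apart. Irf4, the other member made chiefly in blood cells, had 0.854 with E47ER and 0.914 with bHLHER, below the floor on both arrays, and no fold is given for it.

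Of the factors that are activated by phosphorylation, Irf7 was apart and Irf3 and Irf5 were not. Irf7, which amplifies type I interferon production and is itself an interferon-stimulated gene, read 8.80 with E47ER and 2.26 with bHLHER. It was 3.90-fold higher (log2 ratio 1.96) and ranked 25 among all measured genes. Irf3, made at a steady level in most cells and the first of these factors to act in many infections, was level, at 6.69 with E47ER and 6.79 with bHLHER (log2 ratio -0.02). Irf5, a factor of Toll-like receptor signalling in myeloid cells, had 1.59 with E47ER and 1.29 with bHLHER. Its log2 ratio of 0.30 was below the threshold, and both values were near the floor.

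Irf9, the DNA-binding subunit of a complex with Stat factors, had 3.001 with E47ER and 1.65 with bHLHER. Its log2 ratio of 0.86 lay 0.14 below the threshold. Irf1, an activator of antigen processing and host defence genes, had 14.1 with E47ER and 6.76 with bHLHER. It was 2.08-fold higher (log2 ratio 1.06), which is 0.06 above the threshold, at rank 122. Irf2, its competitor, was at 0.943 with E47ER and 0.498 with bHLHER. The first value lies just under the floor, so Irf2 is not counted as measured on either array.

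**Figure D1:**
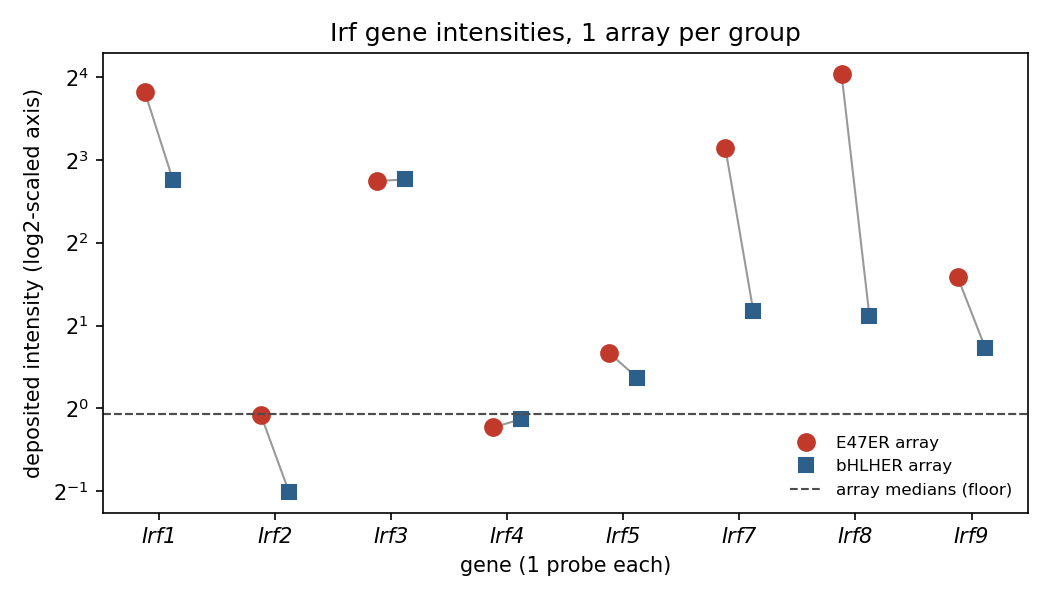
Deposited intensity of the 8 Irf genes on the E47ER array (circles) and the bHLHER array (squares), 1 probe per gene, on a log2-scaled axis, with the array medians as dashed lines. Irf8 and Irf7 show the widest gaps (16.4 against 2.17 and 8.80 against 2.26), Irf3 is level, and Irf2 and Irf4 lie below the medians on both arrays.

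In the family, 3 of 6 measured genes passed the 2-fold threshold upward with E47ER (Irf8, Irf7 and Irf1), none passed it downward and 3 lay inside it. Among all 5534 measured genes 2.31% passed the threshold upward and 0.813% downward. The share of the family past the threshold was thus well above that of all genes, although it rests on 6 genes and 1 array a group, and the family was chosen with earlier results of these arrays known. A log2 ratio above 0 was seen for 5 of the 6, against 44.2% of all genes. The family's median log2 ratio was 0.96, beside -0.05 over all measured genes. The only spread that could be measured was between probes. In 34 genes read by 2 measured probes each, the median gap between both log2 ratios was 0.236, and the signed difference had an SD of 0.758, or 0.376 without the widest pair. Irf1 and Irf9 lay closer to the threshold than that median, on opposite sides, while Irf8 and Irf7 lay 1.92 and 0.96 above the threshold. Both probes of a pair were read on the same 2 arrays, so their spread leaves out all variation between samples. It therefore does not measure how firm any call is.

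**Figure D2:**
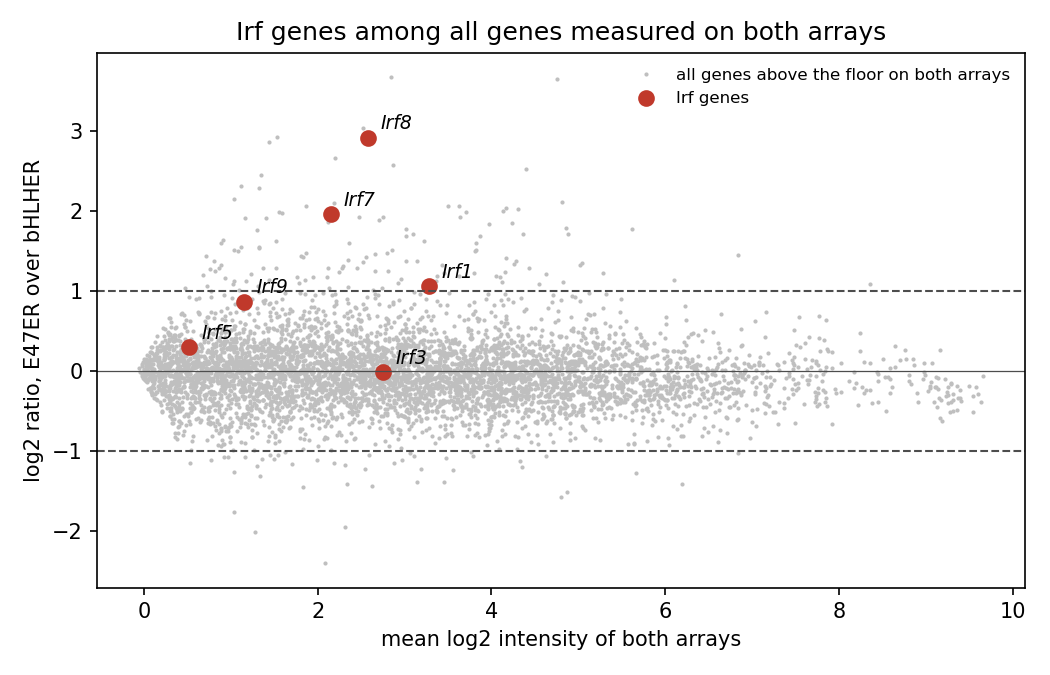
Log2 ratio of E47ER over bHLHER against mean log2 intensity of both arrays for the 5534 genes above the floor on both arrays (grey) and the 6 Irf genes among them (large points). Dashed lines mark a 2-fold difference. Irf8 (2.92) and Irf7 (1.96) lie far above the bulk of genes at their brightness, Irf1 (1.06) and Irf9 (0.86) lie on either side of the line, and Irf3 (-0.02) is inside the bulk.

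The order of the ratios was Irf8, Irf7, Irf1, Irf9, Irf5 and Irf3. Neighbours Irf1 and Irf9 differed by less than the median gap between probes of 1 gene. Other families of blood cell transcription factors are given for comparison, and no difference between families was tested. None of 4 measured Stat genes, none of 2 Ikaros family genes and none of 2 Cebp genes was at least 2-fold higher or lower, which is near the background of 2.31% and 0.813%. Their median log2 ratios were 0.35, 0.34 and 0.36, above those of Irf3 and Irf5. The brightest members were Stat6 and Stat3, both at 0.35, Ikzf1 and Ikzf2 at 0.43 and 0.25, and Cebpb and Cebpd at 0.37 and 0.35. The other measured Stat genes, Stat2 and Stat5a, had 0.73 and -0.27.

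Haematopoietic markers were present, and some marker lists differed between the 2 arrays. In bulk RNA, a change in the share of a cell type and a change in RNA per cell cannot be told apart. Of 12 haematopoietic progenitor markers with values, 9 were measured on both arrays, among them Kit, Flt3 and Ptprc. None of the 9 was 2-fold apart, which is near the background of 2.31% and 0.813%. Gata2, Sox4 and Mpo were below the floor on both arrays. Pan-leukocyte genes were mostly higher with E47ER. Of 23 measured, 5 were at least 2-fold higher and none lower, beside 2.31% and 0.813% of all genes. Their median log2 ratio was 0.46, with 18 above 0 and 5 below. Selplg (2.73-fold), Cd52, Itgb2, Tyrobp and Laptm5 passed the threshold, while Cd53 and Spn had log2 ratios of -0.56 and -0.52. Lcp2 was above the floor with bHLHER only, with a bound of at least 1.53-fold. Summed intensities over 24 genes were 1112 with E47ER and 673 with bHLHER. Stromal and fibroblast markers were mostly lower: 4 of 14 were at least 2-fold lower and none higher, beside 0.813% and 2.31% of all genes. A log2 ratio below 0 was seen for 13 of the 14, while Igfbp4 had 0.73. The median was -0.80, and summed intensities over 19 genes were 186 with E47ER and 310 with bHLHER. Those past the threshold were the matrix genes Bgn (2.23-fold), Col6a1 and Mgp and the metalloproteinase inhibitor gene Timp3. Dcn, Lum, Postn and Thy1 were below the floor on both arrays. T cell markers were mixed. Their summed intensities over 11 genes were 22.5 with E47ER and 5.89 with bHLHER, of which Cd7 alone read 10.3 and 0.730. Only 2 of the 11, Lat and Cd4, were measured on both arrays. Cd4 had 1.23 with E47ER and 1.36 with bHLHER (log2 ratio -0.14). Lat, whose product links the T cell receptor to its signalling, was 4.95-fold higher (0.977 on the bHLHER array, near the floor). Cd7, Ptcra and Gata3, which exceeded the floor on the E47ER array alone, had bounds of at least 10.8-fold, 2.15-fold and 1.56-fold. The remaining 6, among them Cd3d, Cd3e and Cd3g, were below the floor on both arrays. In the erythroid and megakaryocyte list, Tfrc, the transferrin receptor gene, was 4.06-fold higher, while Hba-a1 and Gp9 had log2 ratios of -0.11 and 0.09. Gfi1b of that list was above the floor with bHLHER only, at least 2.28-fold higher there. Of 11 granulocyte markers 9 were below the floor on both arrays. Mmp8, a neutrophil collagenase gene, was 2.73-fold lower, and Prtn3 was level (log2 ratio -0.02). Id2, an inhibitor of E proteins, was 12.5-fold higher. Esr1, the oestrogen receptor gene, had 3.86 with E47ER and 0.0726 with bHLHER, a bound of at least 4.05-fold, although both construct names end in ER. The region read by this probe is not known here, so neither the bHLHER label nor equal construct expression could be checked. The part of these differences in the Irf ratios was not tested. When all log2 ratios were lowered by 0.46, the median of the pan-leukocyte genes, the median of all genes moved to -0.51. Irf8 and Irf7 then remained past the threshold at 2.46 and 1.51, Irf1 did not at 0.60, Irf9 stood at 0.41, and Irf5 turned to -0.16. The same shift was taken from every gene, so these values follow from the starting ratios. They do not adjust for the share of cell types, and single pan-leukocyte genes ran from -0.56 to 1.45.

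Markers of lineages in which Irf8 is known to act were mixed. Of 5 measured dendritic cell markers, Itgax (CD11c) was 3.70-fold higher, with 12.6 on the E47ER array and 3.39 on the bHLHER array, while Xcr1 (11.1 with E47ER, 11.2 with bHLHER) and Cst3 (121.3 with E47ER, 120.5 with bHLHER) were level. A further 2 were above the floor with E47ER only. Ly6d, which marks early B lineage and plasmacytoid dendritic precursors, had 15.5 with E47ER and 0.188 with bHLHER and was at least 16.3-fold higher, and the chemokine receptor gene Ccr9 was at least 1.67-fold higher. The class II genes H2-Aa and H2-Eb1 were below the floor on both arrays, and the summed intensity of the 11 dendritic markers with values was 167 with E47ER and 140 with bHLHER. Of 6 measured monocyte and macrophage markers, Marco was at least 2-fold higher, and Clec4e and Ccr2 at least 2-fold lower. Among all genes 2.31% passed the threshold upward and 0.813% downward. The median of the 6 was -0.66, and summed intensities over 10 genes were 32.3 with E47ER and 53.0 with bHLHER. Clec4d was above the floor with bHLHER only, with a bound of at least 3.70-fold. Itgam was above it with E47ER only, with a bound of at least 1.77-fold. Among B cell markers 2 of 12 were measured, Rag2 being 2.09-fold lower and Cd79a having a log2 ratio of 0.28. Vpreb1 and Rag1 were above the floor with E47ER only, with bounds of at least 1.36-fold and 1.07-fold. Cd22 was above it with bHLHER only, with a bound of at least 1.03-fold. Pax5, Ebf1 and Ms4a1 were below the floor on both arrays. Summed intensities over the 12 B cell markers were 24.2 with E47ER and 27.5 with bHLHER. The part of these cell types in the Irf8 ratio was not tested.

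The genes around the family were read in 7 lists of sensors and kinases, interferon receptors, partners, modifiers and targets. Together the lists held 99 measured genes other than the Irf genes. Of these, 11 (11.1%) passed the threshold upward with E47ER and 2 (2.02%) downward, beside 2.31% and 0.813% of all genes, and their median log2 ratio was 0.11. The lists were chosen with earlier results of these arrays known, so these shares are descriptions. With the pan-leukocyte centring the counts were 6 higher and 9 lower, beside 60 and 422 of all 5534 genes, since the centring lowers every ratio alike.

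Upstream of Irf3, Irf5 and Irf7, most sensors, adaptors and kinases were close to level. Of 19 measured genes 1 was at least 2-fold higher and none lower, beside 2.31% and 0.813% of all genes. The median log2 ratio was 0.11, which turned to -0.34 with the centring. The gene apart was Unc93b1, the chaperone that carries nucleic acid-sensing Toll-like receptors to endosomes. It had 37.1 with E47ER and 11.3 with bHLHER, 3.28-fold higher. The receptors it serves, Tlr7 (2.01 with E47ER, 1.57 with bHLHER) and Tlr9 (3.07 with E47ER, 2.44 with bHLHER), had log2 ratios of 0.35 and 0.33. The kinase gene Irak1 had 26.5 with E47ER and 31.2 with bHLHER. Tbk1, the kinase that phosphorylates Irf3, had 7.19 with E47ER and 7.66 with bHLHER, and the adaptor gene Myd88 had 9.57 with E47ER and 8.84 with bHLHER.

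No interferon gene with a value was above the floor on either array. Ifnb1, for example, was at 0.243 with E47ER and 0.336 with bHLHER. Among interferon receptor, Jak and Stat genes, 1 of 10 was at least 2-fold higher and none lower, beside 2.31% and 0.813% of all genes. Their median log2 ratio was 0.51, or 0.05 with the centring. Jak2 was the gene past the threshold, 2.08-fold higher, at 2.39 with E47ER and 1.15 with bHLHER, the second value near the floor. The type I interferon receptor gene Ifnar1 had 17.9 with E47ER and 11.4 with bHLHER (log2 ratio 0.65). Jak1 was level, at 25.8 with E47ER and 25.5 with bHLHER. Stat2, the partner of Irf9, had 2.19 with E47ER and 1.33 with bHLHER (log2 ratio 0.73). Ifngr1 and Ifngr2, the interferon gamma receptor chains, had log2 ratios of -0.30 and -0.71.

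Of 12 measured partner factors of Irf4 and Irf8, 1 was at least 2-fold higher and none lower, beside 2.31% and 0.813% of all genes. The median was 0.02, or -0.44 with the centring. Spi1, the main partner of Irf8 in myeloid cells, had 6.75 with E47ER and 5.33 with bHLHER (log2 ratio 0.34). The gene apart was Cbfa2t3, a corepressor of the ETO family that E proteins also recruit, 2.45-fold higher with 8.55 on the E47ER array and 3.50 on the bHLHER array. Jund had 287 with E47ER and 185 with bHLHER (log2 ratio 0.63). The E protein gene Tcf4 had 14.6 with E47ER and 21.8 with bHLHER (log2 ratio -0.57). None of 12 Irf-binding corepressors and modifiers was 2-fold apart, which is near the background of 2.31% and 0.813%. Their median was -0.06. Npm1 had 520 with E47ER and 597 with bHLHER, Trim28 had 110.4 with E47ER and 98.9 with bHLHER, and Irf2bpl, which carries the zinc finger of Irf2-binding proteins, had 6.36 with E47ER and 6.97 with bHLHER. Usp18, which restrains interferon receptor signalling, was above the floor with E47ER only (2.56, against 0.835 with bHLHER) and was at least 2.69-fold higher.

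Target lists differed. Of 17 measured targets of Irf3, Irf7 and Irf9, 2 were at least 2-fold higher and none lower, beside 2.31% and 0.813% of all genes. A log2 ratio above 0 was seen for 14 of the 17, beside 44.2% of all genes. The median log2 ratio was 0.60, or 0.15 with the centring. Isg20, an antiviral exonuclease gene, was 2.83-fold higher (3.57 with E47ER, 1.26 with bHLHER, the second near the floor), and Pml, a nuclear body gene, 2.27-fold higher (18.7 with E47ER, 8.23 with bHLHER). Just under the threshold, Sp100, Tap1, Ifi47 and Irgm1 had log2 ratios of 0.96, 0.95, 0.91 and 0.87. Usp18, Igtp and Oasl2 were above the floor with E47ER only, with bounds of at least 2.69-fold, 1.31-fold and 1.04-fold. The classical antiviral targets Ifit1, Ifit2, Ifit3, Isg15, Rsad2 and Cxcl10 were below the floor on both arrays. Of the 3 measured targets below 0, Ifi204 had a log2 ratio of -0.48. Ifitm1 (521 with E47ER, 611 with bHLHER) and Ifitm2 (53.3 with E47ER, 57.8 with bHLHER) had log2 ratios of -0.23 and -0.12. These genes have close paralogs that a probe may also read.

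Of 14 measured targets of Irf1, 4 were at least 2-fold higher and none lower, beside 2.31% and 0.813% of all genes. The median was 0.39, which turned to -0.07 with the centring. Il7r, the interleukin-7 receptor chain, was 4.18-fold higher (25.2 with E47ER, 6.05 with bHLHER). H2-T23, which encodes a non-classical class I molecule, was 2.86-fold higher, Cdkn1a, the cell cycle inhibitor p21, 2.32-fold and the guanylate-binding protein gene Gbp3 2.23-fold, the last at 1.28 on the bHLHER array. Antigen processing genes of the same list lay inside the threshold. Tap1, a peptide transporter subunit, came nearest, at 5.43 with E47ER and 2.81 with bHLHER (log2 ratio 0.95), and the immunoproteasome gene Psmb9 had 27.7 with E47ER and 20.4 with bHLHER (0.44). Psme1 had 118.7 with E47ER and 106.4 with bHLHER, Psmb8 had 94.4 with E47ER and 94.5 with bHLHER, and B2m had 199.8 with E47ER and 262 with bHLHER (log2 ratio -0.39). Il7r and Cdkn1a are also known to respond to E proteins, so they are not markers of Irf1 alone.

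The list of Irf8 targets held genes far apart in both directions. Of 23 measured genes 3 passed the threshold upward and 2 downward, while 18 lay inside it, beside 2.31% and 0.813% of all genes, with a median of -0.0035, or -0.46 with the centring. Besides Itgax and Pml, Il18, a cytokine gene, was 3.11-fold higher (3.31 with E47ER, 1.06 with bHLHER, the second near the floor). Ccl3, a chemokine gene, was 3.88-fold lower (2.53 with E47ER, 9.82 with bHLHER), and Tnf was 2.28-fold lower (1.63 with E47ER, 3.73 with bHLHER). Ccl4 had 31.2 with E47ER and 42.4 with bHLHER (log2 ratio -0.44). Cybb, a subunit of the phagocyte oxidase and a long-known Irf8 target, was below the floor on both arrays.

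**Figure D3:**
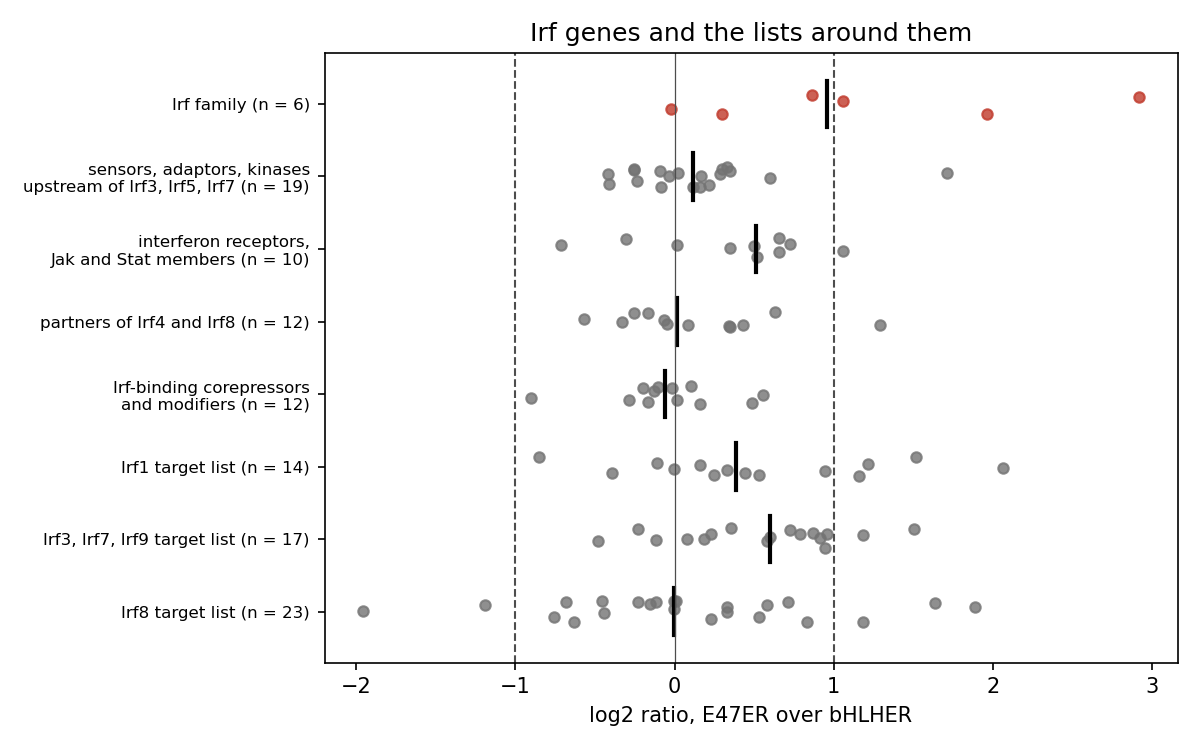
Log2 ratio of E47ER over bHLHER for each measured gene of the Irf family (top) and of the 7 lists around it, with the number of measured genes beside each name. Bars are medians and dashed lines mark a 2-fold difference. The median is 0.96 for the family, 0.60 for targets of Irf3, Irf7 and Irf9, and near 0 for partners, modifiers and Irf8 targets.

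The measured genes closest to each Irf gene in log2 intensity on both arrays were looked up, with distance in log2 units over 2 arrays. For Irf8 the nearest was Pdgfa, a growth factor subunit, at a distance of 0.12 (16.5 with E47ER, 2.004 with bHLHER). Kmo, an enzyme of tryptophan breakdown, and Serpinb9g followed at 0.47 and 0.56. For Irf7 they were Mknk1, a kinase of the MAP kinase pathway, at 0.09, Tmem119 at 0.11 and Prkca at 0.39. Irf1 had Lrrfip1, Ypel3 and Acvr2b at 0.11, 0.13 and 0.15. Irf9 had Fgf3, Spry4 and Pip4k2a at 0.07, 0.08 and 0.13. The 3 genes nearest to Irf3 (Trabd, Sptbn4 and Pms1) lay at distances up to 0.0196, and those nearest to Irf5 (Ski, Hcn2 and Gucy1b2) at distances up to 0.0234. The distance takes in the brightness of each probe, which differs between probes for reasons other than expression, so it describes probe readings on 2 arrays and not shared expression.

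**Figure D4:**
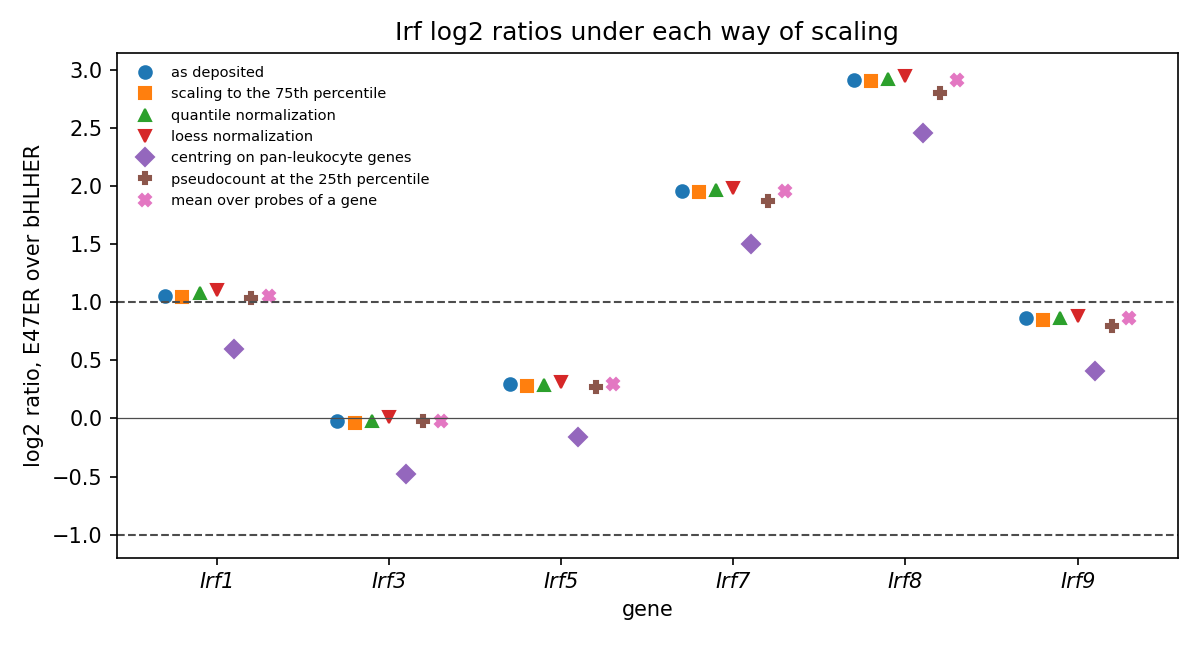
Log2 ratio of the 6 measured Irf genes with the deposited values and under 6 other ways of scaling or summarising them. The mean over probes repeats the deposited values because each Irf gene has 1 probe. Irf8 and Irf7 are above the dashed 2-fold line under all of them, Irf1 lies below it with the centring on pan-leukocyte genes (0.60), and Irf5 and Irf3 lie between -0.48 and 0.32.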

How the data were processed

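The authors deposited 1 linear intensity per probe and array for 20289 probes. Per the labels, these came from CodeLink mouse 20k arrays, and the sources used here do not give their scaling or background removal. The medians differed by 0.416%, so the deposited intensities were used unchanged. Missing values and values at or below 0 were left out (119 and 45 probes for E47ER, 125 and 84 for bHLHER). Platform annotation gave 10349 probes 1 symbol each, none several, and left 9940 unnamed here. All 10349 identifiers matched RefSeq (GRCm38.p6). For genes with several probes, the brightest was used.

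Where only 1 array exceeded its floor, a bound was computed against the dimmer array's floor or value, whichever was higher. The members and lists were chosen with earlier results of these data known. Named genes were all Irf genes, list members at least 2-fold apart, the 2 brightest of each pathway or factor family list and the 3 genes nearest each Irf gene. Others illustrate a list and were picked with their values in view. The code that makes the calls was run on simulated data with known ratios, which checks the code and not any call. Tools were Python 3.11.15, pandas 2.3.3 and limma 3.58.1 in R 4.3.3. Alternatives were other scalings, floors, a pseudocount, the mean over probes and a stricter threshold. The number of arrays limits the precision.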

Additional observations from a re-analysis of the deposited data

How the results depend on the processing

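No paired analysis was possible because there was 1 array a group, and no replicate could be left out. The family count of 3 genes at least 2-fold higher was unchanged under 75th percentile scaling, quantile normalization, loess and the pseudocount. It was also 3 with the mean over probes, which cannot change it because each Irf gene has 1 probe. A floor at the 25th percentile and no floor, which can only add genes to the count, gave 3 as well. The count was 2 with pan-leukocyte centring and with a log2 threshold of 1.5. It was 1 when the floor was raised to the 75th percentile, where only Irf1 and Irf3 were measured. Irf8 and Irf7 were then above the floor with E47ER only. Irf8 had a bound of at least 2.86-fold and Irf7 of at least 1.54-fold, which is short of the 2-fold threshold. No Irf gene was at least 2-fold lower under any of these. The family median was 0.50 with the centring and 0.52 with the raised floor. The log2 ratio of Irf8 ranged from 2.46 to 2.95 and that of Irf7 from 1.51 to 1.99 over 6 alternatives. These leave out the changes of floor and threshold, and 1 of them, the mean over probes, repeats the deposited values.

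Counts of higher and lower genes moved. For all genes (128 and 45) they were 60 and 422 with the centring, 204 and 77 when the floor was lowered to the 25th percentile, 43 and 16 with the raised floor, 545 and 348 without a floor, and 56 and 6 with a log2 threshold of 1.5. For the lists around the family (11 and 2) they were 6 and 9 with the centring, 4 and 0 with the raised floor, 21 and 4 without a floor, and 6 and 1 with a log2 threshold of 1.5. A higher floor measures fewer genes by construction, and the centring lowers every ratio alike.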

Other observations

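The genes next to the Irf genes on their chromosomes were also read. Of the 2 protein-coding genes on each side of each member in RefSeq order, 32 in all, 15 had a value and 10 were measured on both arrays. None was at least 2-fold higher or lower, which with 2.31% and 0.813% of all genes past the threshold is near the background for 10 genes. Their log2 ratios ran from -0.52 to 0.50 with a median of 0.03. Beside Irf8, Cox4i1, a subunit of cytochrome c oxidase, had 205 with E47ER and 185 with bHLHER (log2 ratio 0.14). Emc8, its other measured neighbour on that side, had 104.7 with E47ER and 73.9 with bHLHER (0.50), and Mthfsd, on the far side, had 2.74 with E47ER and 2.65 with bHLHER (0.04). Beside Irf1, the cytokine gene Il5 had 9.33 with E47ER and 9.12 with bHLHER (0.03), Slc22a5, a carnitine transporter gene, 2.11 with E47ER and 2.05 with bHLHER (0.04), and Rad50, a DNA repair gene, 8.35 with E47ER and 11.0 with bHLHER (-0.40). No neighbour of Irf7 had a value here. This comparison was chosen after the values of the family were seen.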
